A study of Nasonia vitripennis with 6 samples.

Results

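The 3 genes described here are Nv-zen (Nasvi2EG011090), Nv-dorsocross (Nasvi2EG003929) and Nv-tailup (Nasvi2EG020519) of the parasitoid wasp Nasonia vitripennis, chosen by name and identifier as regulators of the extraembryonic and dorsal fates, and they are 3 of 20033 loci in the deposited table. RNA was sequenced from pooled embryos of 4 to 7 h, a window around the late blastoderm, in 6 libraries of poly-A RNA. The BMP pRNAi group has 2 libraries, replicate 1 from mothers injected with gbb1 dsRNA and replicate 2 from mothers injected with dpp dsRNA. The Toll pRNAi group has 2 libraries from mothers injected with Toll dsRNA, and the water group has 2 libraries from mothers injected with water. No strain or allele differs between the groups by their labels, and all mothers were injected, the knockdown mothers with about 2 micrograms of dsRNA. In pRNAi, or parental RNA interference, dsRNA injected into the mother lowers transcripts in her offspring, so the measured embryos may keep part of the targeted activity. Each library is a pool of embryos and reports no position within the embryo, so the extraembryonic label of the 3 genes could not be checked from these data.

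BMP ligands are secreted signals that bind receptors on the cell surface and, through Smad proteins such as Mad, switch on target genes on the dorsal side of insect embryos. Toll is a receptor on the egg membrane whose signal brings the transcription factor Dorsal into ventral nuclei, and in Drosophila Dorsal activates ventral genes and represses dorsal ones. In Drosophila, zen encodes a homeodomain protein that specifies the amnioserosa, the extraembryonic tissue, Dorsocross genes encode T-box proteins needed for its maintenance, and tailup encodes a LIM-homeodomain protein of the amnioserosa and dorsal ectoderm. In most insects zen marks the serosa, the membrane that encloses the embryo.

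The libraries held between 22754267 and 30590172 fragments assigned to loci. The replicates of BMP pRNAi were the least alike, with an SD of 0.247 for the log2 difference between libraries over 6153 well-covered loci, against 0.122 for Toll pRNAi and 0.189 for water. Each BMP library comes from another ligand, so a difference between dpp and gbb knockdown has no replicate. By the study's methods the Toll libraries come from separate experiments with different dsRNAs against the gene, and the water libraries from independent pools of embryos, so the spread between libraries of 1 group includes that of the reagent in both knockdown groups. The ventral genes twist, snail and single-minded mark mesoderm and its border in Drosophila. Of these, 3 of 3 were lower after Toll pRNAi than after water, where 1.03% of all tested loci were lower. The log2 fold changes were -4.20 for Nv-twi, -0.97 for Nv-sna and -2.52 for Nv-sim, and 2 of 3 passed by limma on log2(FPKM + 1). These genes were taken from the study's results on these samples, so their direction is no independent check on the groups.

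All 3 genes were lower after BMP pRNAi, against both water and Toll pRNAi. Of all tested loci, 3.49% were lower against water and 5.83% against Toll pRNAi. The study had already reported these 3 genes as lower after BMP pRNAi in these samples. Nv-zen fell furthest, to 15.6% of its water level, Nv-tailup to 27.7% and Nv-dorsocross to 45.4%. After Toll pRNAi only Nv-dorsocross passed the test against water, at 141% of its water level, and that call was lost with any 1 of the Toll and water libraries left out and in 3 fits by limma. Levels are given as FPKM, fragments scaled to the length of the transcripts and to library size, which allows genes of different length to be compared.

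Nv-zen, the homeobox gene, lies in a locus of 3531 bases on scaffold 23 of assembly 1.0, from 1683598 to 1687128. Its level was 4.01 and 5.36 FPKM after BMP pRNAi, 37.2 and 31.6 FPKM after Toll pRNAi and 28.9 and 31.1 FPKM after water injection. Both BMP libraries lay far below the other 4, and both Toll libraries lay above both water libraries. The group means were 4.69 ± 0.951, 34.4 ± 4.00 and 29.99 ± 1.55 FPKM for BMP pRNAi, Toll pRNAi and water (SD, n = 2 each). Behind these levels were 339 and 396 fragments in the BMP libraries, 2210 and 2119 in the Toll libraries and 1711 and 2258 in the water libraries.

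Nv-dorsocross, the T-box gene, lies in a locus of 14032 bases on scaffold 5, from 3395835 to 3409866. Its level was 12.4 and 10.7 FPKM after BMP pRNAi, 35.1 and 36.2 FPKM after Toll pRNAi and 23.6 and 27.05 FPKM after water injection. The 3 groups did not overlap, with BMP pRNAi lowest and Toll pRNAi highest. The means were 11.5 ± 1.20 FPKM after BMP pRNAi, 35.6 ± 0.772 FPKM after Toll pRNAi and 25.3 ± 2.44 FPKM after water injection (SD, n = 2 each). Its expected fragment counts were not whole, to within 1e-06, in 4 of 6 libraries, so some of its fragments were divided between places of mapping, and its values are less certain in that respect than those of Nv-zen and Nv-tailup, whose counts were whole in every library. The lists of the study also pair the Drosophila Dorsocross genes with Nasvi2EG009552, the locus that another of its lists calls Nv-omb, so the T-box name of either locus is uncertain.

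Nv-tailup, the LIM-homeodomain gene, lies in a locus of 19148 bases on scaffold 127, from 44395 to 63542. Its level was 1.08 and 0.939 FPKM after BMP pRNAi, 3.19 and 3.53 FPKM after Toll pRNAi and 3.66 and 3.63 FPKM after water injection. The BMP libraries were lowest, and the Toll libraries lay just below the water libraries on this scale. The means were 1.01 ± 0.0991 FPKM after BMP pRNAi, 3.36 ± 0.236 FPKM after Toll pRNAi and 3.65 ± 0.0169 FPKM after water injection (SD, n = 2 each). It is the gene of the 3 with the fewest fragments, 130 and 106 after BMP pRNAi, 281 and 363 after Toll pRNAi and 296 and 370 after water injection.

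**Figure D1:**
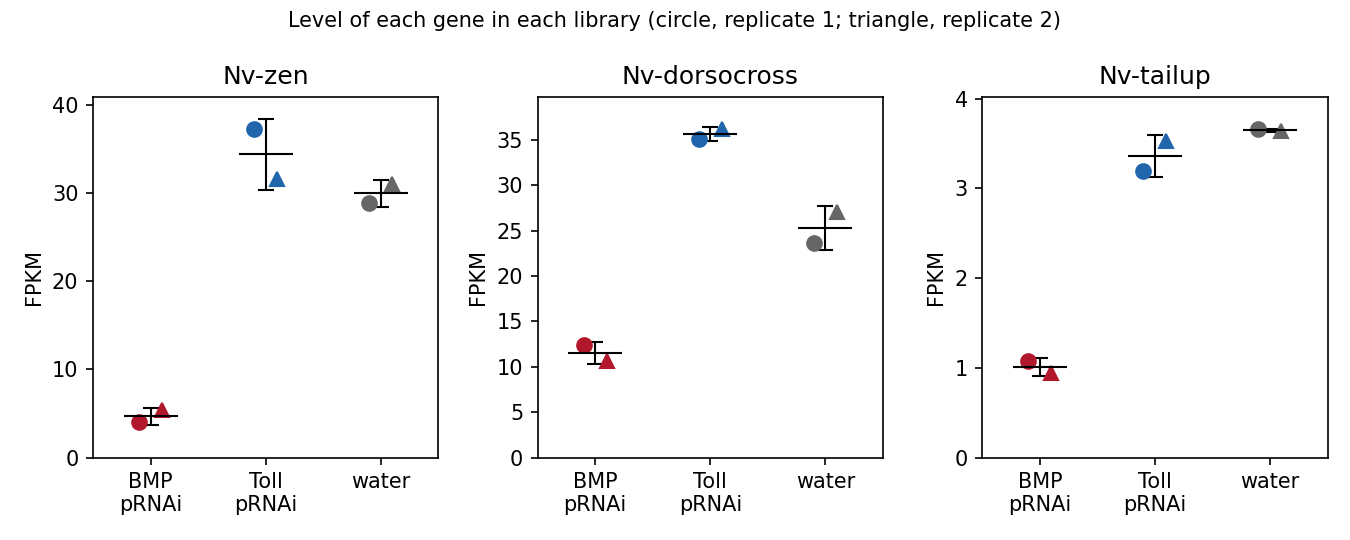
FPKM (vertical axis, linear, from 0) of each gene in each library, with BMP pRNAi, Toll pRNAi and water from left to right; points are libraries, long bars are means and whiskers are SD (n = 2). The BMP libraries lie lowest in every panel, for Nv-zen at 4.01 and 5.36 FPKM, and Nv-dorsocross is highest after Toll pRNAi, at 35.1 and 36.2 FPKM.

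The comparison of BMP pRNAi with water asks which transcripts need BMP ligands. The study had already reported lower levels of these 3 genes after BMP pRNAi in these samples. Finding them lower here is therefore not independent evidence. With edgeR's quasi-likelihood test across 10241 loci, 3 of 3 genes were lower after BMP pRNAi, where 3.49% of all tested loci were lower and 5.55% differed in either direction. The log2 fold change of Nv-zen was -2.67 (SE 0.13, edgeR adjusted p = 3.1e-05), a level 6.37-fold lower than in water. Nv-tailup changed by -1.75 (SE 0.14, edgeR adjusted p = 0.00052), or 3.35-fold lower. Nv-dorsocross changed by -1.17 (SE 0.10, edgeR adjusted p = 0.00074), or 2.25-fold lower. Counted from the most strongly reduced locus, Nv-zen stood at place 24, Nv-tailup at place 73 and Nv-dorsocross at place 198 of 10241, and the median of all tested loci was 0.0084. In these pooled embryos, fewer cells of a type and less RNA per cell cannot be told apart. The ventral genes moved the other way, with 3 of 3 higher after BMP pRNAi than after water, where 2.06% of all tested loci were higher (log2 fold change 1.07 for Nv-twi, 0.84 for Nv-sna and 0.91 for Nv-sim), although the count was 1 without water replicate 1 and 0 without water replicate 2. The ventral genes, too, were taken from the study's results on these samples, so their direction is not independent evidence. Their part in the result for the 3 dorsal genes was not tested.

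The comparison of Toll pRNAi with water asks which transcripts depend on Toll. Nv-dorsocross was higher after Toll pRNAi, by a log2 fold change of 0.52 (SE 0.099, edgeR adjusted p = 0.033), so 1 of 3 genes was called higher where 2.6% of all tested loci were higher and 3.62% differed in either direction. It stood at place 579 of 10241 counted from the most strongly raised locus. The call was lost when any 1 of the 4 Toll pRNAi and water libraries was left out, with log2 fold changes of 0.45 to 0.59 and adjusted p between 0.14 and 0.26. With all libraries it was also lost by limma, with adjusted p of 0.088 on log2(FPKM + 1), 0.13 on that scale with no filter and 0.16 on log2(FPKM + 0.1). Nv-zen had a log2 fold change of 0.21 (SE 0.12, edgeR adjusted p = 0.33) and Nv-tailup of 0.02 (SE 0.13, edgeR adjusted p = 0.94), and neither passed. The sign for Nv-tailup turned with the scale: as a percent of water its Toll level was 92.1 by FPKM and 101.6 by CPM, the fragments scaled to library size with TMM factors. That 1 gene passed and the others did not is no test of a difference between the genes.

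BMP pRNAi and Toll pRNAi were also set against each other, a comparison of means that leaves out the water libraries. Those libraries enter the filter on loci, the scaling between libraries and the estimate of the spread. All 3 genes were lower after BMP pRNAi than after Toll pRNAi, where 5.83% of all tested loci were lower and 6.89% differed in either direction. The log2 fold change was -2.88 for Nv-zen (SE 0.13, edgeR adjusted p = 9.1e-06), a 7.38-fold difference. It was -1.77 for Nv-tailup (SE 0.14, edgeR adjusted p = 0.00025) and -1.69 for Nv-dorsocross (SE 0.10, edgeR adjusted p = 5e-05), differences of 3.41-fold and 3.22-fold. From the lowest, Nv-zen stood at place 26, Nv-tailup at place 104 and Nv-dorsocross at place 119 of 10241. The 3 comparisons share libraries in pairs, so their values for a gene are not independent of one another. The BMP libraries are also those in which the study had already reported the 3 genes as lower. The title numbers of the water libraries differ from those of the knockdown libraries. A difference of either knockdown from water therefore cannot be told apart from whatever those numbers stand for. The rise of Nv-dorsocross after Toll pRNAi is such a difference.

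**Figure D2:**
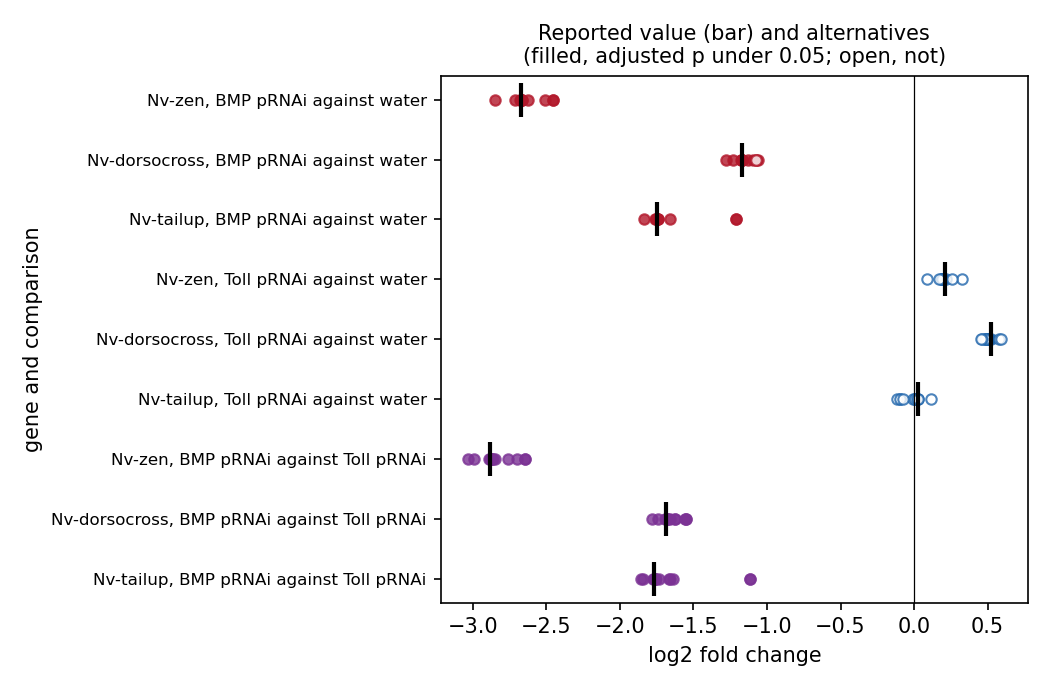
Log2 fold change (horizontal axis) of each gene in each comparison, as reported (bar) and under the alternative settings (circles, filled where the adjusted p was under 0.05). Nv-zen and Nv-tailup stay below 0 with filled circles in both comparisons of BMP pRNAi, the circles of Nv-dorsocross against water after Toll pRNAi are partly open, at 0.45 to 0.59, and those of Nv-tailup after Toll pRNAi lie on both sides of 0.

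The order of the 3 genes by FPKM depended on the group. After BMP pRNAi, Nv-dorsocross was highest in both libraries, Nv-zen next and Nv-tailup lowest. After Toll pRNAi, Nv-zen (37.2 and 31.6 FPKM) and Nv-dorsocross (35.1 and 36.2 FPKM) overlapped, and Nv-tailup was lowest. After water injection, Nv-zen (28.9 and 31.1 FPKM) lay above Nv-dorsocross (23.6 and 27.05 FPKM) in both libraries, without overlap, and Nv-tailup was again lowest.

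Ratios between 2 genes within a library are free of the total of that library. The FPKM of Nv-zen over that of Nv-dorsocross was 0.325 and 0.503 after BMP pRNAi, 1.06 and 0.873 after Toll pRNAi and 1.22 and 1.15 after water injection. This ratio was lowest in the BMP libraries and highest in the water libraries, without overlap, and its mean on the log scale was 2.93-fold lower after BMP pRNAi than after water. The ratio of Nv-zen to Nv-tailup was 3.72 and 5.70 after BMP pRNAi, 11.7 and 8.96 after Toll pRNAi and 7.90 and 8.55 after water injection. It was again lowest after BMP pRNAi, 1.78-fold lower than after water. The ratio of Nv-dorsocross to Nv-tailup was 11.4 and 11.3 after BMP pRNAi, 11.0 and 10.3 after Toll pRNAi and 6.45 and 7.44 after water injection. Here both knockdowns lay above water, BMP pRNAi 1.64-fold and Toll pRNAi 1.53-fold. On FPKM the libraries did not overlap in any of the 9 comparisons of a ratio between groups. With 2 libraries against 2, the two-sided exact permutation test gave p = 0.333 in each. This is the smallest it can give, so none of these differences could pass 0.05. On CPM with TMM factors, Nv-zen over Nv-tailup overlapped between Toll pRNAi and water. There Toll replicate 2 had 83.6 over 14.3 CPM, and the water libraries 76.1 over 13.2 and 80.9 over 13.2 CPM. How often other pairs of loci fail to overlap was not counted.

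**Figure D3:**
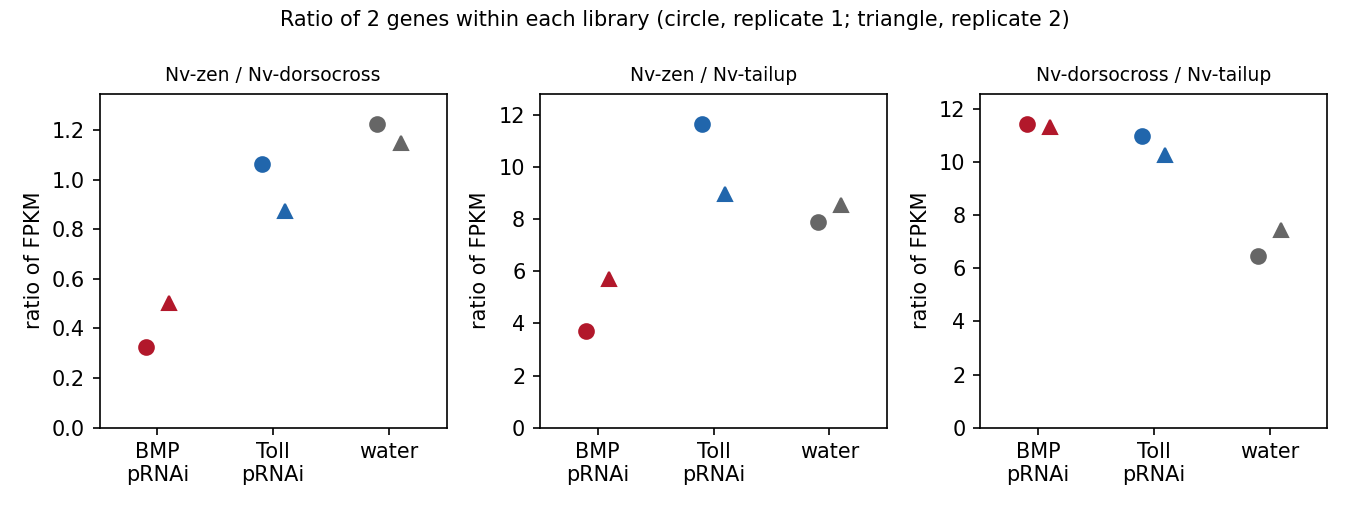
Ratio of the FPKM of 2 genes within each library (vertical axis, linear, from 0), with BMP pRNAi, Toll pRNAi and water from left to right and 1 point per library. Nv-zen over Nv-dorsocross is lowest in the BMP libraries, at 0.325 and 0.503, and Nv-dorsocross over Nv-tailup is lowest in the water libraries, at 6.45 and 7.44.

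The 3 genes did not all differ in the same direction between the libraries of the 2 BMP ligands. Nv-zen was lower in the gbb library, at 11.1 CPM without TMM factors (95% exact Poisson interval 9.93 to 12.3), than in the dpp library, at 14.3 CPM (12.9 to 15.7), and these intervals cover counting error only. On FPKM the dpp library was higher by 0.42 on the log2 scale for Nv-zen, and the same difference was -0.21 for Nv-dorsocross and -0.20 for Nv-tailup, so these genes were lower in the dpp library. Only the difference of Nv-zen was larger than 0.247, the SD of the log2 differences between the BMP libraries over all well-covered loci. That SD was taken on CPM with TMM factors, not FPKM, over loci above 10 CPM on the log-scale average, which leaves out Nv-tailup. With these factors Nv-zen had 10.9 CPM in the gbb library and 13.8 CPM in the dpp library, a smaller difference than on FPKM. The ligand gene Nv-dpp itself stood at 12.7 FPKM in the gbb library and 7.03 FPKM in the dpp library, against 18.0 and 18.7 FPKM after Toll pRNAi and 18.1 and 17.0 FPKM after water injection. Nv-twi, Nv-sna and Nv-sim were each higher in the gbb library (87.8, 42.6 and 35.7 FPKM) than in the dpp library (79.0, 30.9 and 27.7 FPKM). With 1 library per ligand these differences have no test. The dpp library shares its title number with Toll replicate 1, and the gbb library with Toll replicate 2. Toll replicate 1 was likewise the higher for Nv-zen (37.2 against 31.6 FPKM). It was the lower for Nv-dorsocross (35.1 against 36.2 FPKM) and Nv-tailup (3.19 against 3.53 FPKM). Nv-twi, Nv-sna and Nv-sim went the other way, each higher in Toll replicate 1. Ligand therefore cannot be told apart from title number, and their parts were not tested.

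A list of 13 transcription factors, the 3 genes among them, was compiled from genes that the study assigns to dorsal, dorsolateral or broad lateral expression, and 12 could be paired with a locus. The study chose these genes on these samples, so the direction of the list is not independent evidence. After BMP pRNAi the test called 12 of 12 lower than in water, where 3.49% of all tested loci were lower, with a median log2 fold change of -2.16 against 0.0084 over all tested loci, and 11 or 12 were lower when 1 library was left out. The other 9 factors had a median of -2.58 and a range between -4.20 and -0.69, and Nv-dorsocross lay near the weak end of the list, between Nv-CG11966 at -0.69 and Nv-yorkie, the co-activator of the Hippo pathway, at -1.23. Nv-tailup lay in the middle. Nv-zen was near Nv-grain, a GATA factor, at -2.58, and Nv-disco, a zinc finger gene, at -2.72, and less reduced than Nv-pannier, another GATA factor, at -2.95. The most reduced of the 12 were Nv-omb, a T-box gene, at -3.60 and Nv-CG13296 at -4.20. The loci of Nv-grain and Nv-disco each hold 2 gene identifiers, so part of the signal may belong to the other gene.

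Per library, Nv-omb had 0.407 and 0.442 FPKM after BMP pRNAi, 9.83 and 9.70 FPKM after Toll pRNAi and 6.20 and 5.56 FPKM after water injection. Its 3 groups did not overlap, with BMP pRNAi lowest and Toll pRNAi highest. In this list 10 of the 12 factors showed that order, Nv-zen and Nv-dorsocross among them and Nv-tailup and Nv-CG11966 not. The share of all tested loci with this order was not counted, so the count describes the list only. Nv-pannier had 0.810 and 0.742 FPKM after BMP pRNAi, 7.14 and 7.88 FPKM after Toll pRNAi and 7.14 and 5.95 FPKM after water injection. Its BMP libraries were lowest and 1 Toll library was level with the higher water library. It is among the 10 only by 7.138 FPKM in Toll replicate 1 against 7.136 FPKM in water replicate 1.

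After Toll pRNAi 4 of the 12 factors were higher than in water, where 2.6% of all tested loci were higher. These were Nv-dorsocross with Nv-omb at 0.84 (edgeR adjusted p = 0.0084), Nv-disco at 0.65 (edgeR adjusted p = 0.041) and Nv-msh, a homeobox gene, at 0.64 (edgeR adjusted p = 0.026). The other 8, Nv-zen and Nv-tailup among them, did not pass, while the fold changes of 12 of 12 lay above 0, with a median of 0.34 against 0.022 over all tested loci. When 1 library was left out, 0 or 1 of the 12 passed. Set against Toll pRNAi, 12 of 12 were lower after BMP pRNAi, where 5.83% of all tested loci were lower, with a median of -2.46, and 12 were lower with any 1 library left out.

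**Figure D4:**
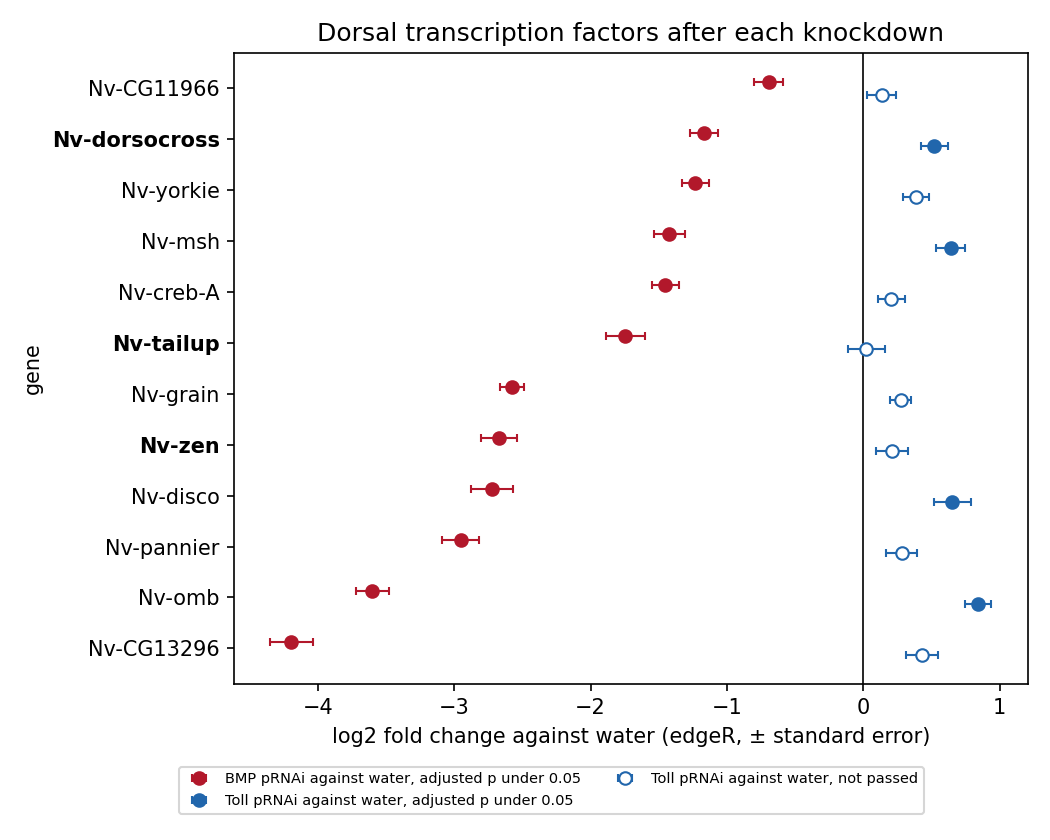
Log2 fold change against water (horizontal axis, edgeR, with standard error) of the 12 dorsal transcription factors that could be tested, in red for BMP pRNAi and in blue for Toll pRNAi, filled where the adjusted p was under 0.05. Every red point lies below 0, with Nv-dorsocross at -1.17, Nv-tailup at -1.75 and Nv-zen at -2.67, and the blue points lie between 0.02 and 0.84.

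Genes of the BMP pathway were read beside the 3 genes. Most of these genes, too, were picked by the study for a change in these samples, so their direction is not independent evidence. Of 6 listed, 5 were called lower than in water after BMP pRNAi, where 3.49% of all tested loci were lower, and the median was -1.06 against 0.0084 over all tested loci. They were the receptor gene Nv-punt at -3.47, the BMP-binding Nv-cv2 at -3.38, the BMP-binding Nv-tsg2 at -1.15, Nv-ltl at -0.97 and the transducer Nv-mad2 at -0.45. The sixth, Nv-dpp, the ligand, had -0.66 (edgeR adjusted p = 0.057). After Toll pRNAi 1 of 6 was higher, Nv-tsg2 at 0.57, where 2.6% of all tested loci were higher. The count after Toll pRNAi was 0 when 1 library was left out, and 4 to 6 after BMP pRNAi.

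Of 22 other genes that the study lists for the serosa, 21 could be paired, and 2 of these, Nv-punt and Nv-ltl, are also in the list of the BMP pathway. After BMP pRNAi 19 of 21 were lower than in water, where 3.49% of all tested loci were lower, with a median of -1.48, a size between those of Nv-dorsocross and Nv-tailup. The count was 14 to 20 with 1 library left out, and 8 by limma on log2(FPKM + 1) with no filter. The genes that did not pass were Nv-wee1, a cell cycle kinase, at -0.26 and Nasvi2EG019528 at -0.83. After Toll pRNAi 3 of 21 were higher, where 2.6% of all tested loci were higher, with a median of 0.12, and 0 were called when 1 library was left out. As with the dorsal factors, the study chose this list on these samples.

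The profiles of the 3 genes over the 6 libraries resembled one another. Pearson's r of log2 CPM was 0.982 between Nv-zen and Nv-tailup, 0.955 between Nv-dorsocross and Nv-tailup and 0.953 between Nv-zen and Nv-dorsocross (n = 6 libraries), a description in which the groups set most of the spread. Among 1929 loci that spanned at least 1 on the log2 scale, those most like Nv-zen were Nasvi2EG003104 (r = 0.9995), Nv-CG13296 (r = 0.998), a locus with no paired identifier, Nv-CG8745 (r = 0.996) and Nasvi2EG000051 (r = 0.995). Those most like Nv-tailup were Nv-uif (r = 0.9986), Nv-myosinXV (r = 0.998), a locus of 2 identifiers that includes Nv-grain, a locus with no paired identifier and Nv-sp67 (r = 0.993). Those most like Nv-dorsocross were Nasvi2EG020481 (r = 0.998), a locus with no paired identifier, Nasvi2EG004847 (r = 0.995), Nasvi2EG013777 (r = 0.994) and Nv-yorkie (r = 0.992).

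Of the 5 loci nearest to each gene, 4 for Nv-zen, 4 for Nv-tailup and 1 for Nv-dorsocross belonged to the lists used here, which hold 1.87% of the 1929 loci. The study chose most listed genes for a change in these same libraries, so these counts are not independent evidence. The loci nearest to Nv-dorsocross had fold changes after Toll pRNAi between 0.36 and 0.79 and after BMP pRNAi between -1.59 and -0.80. Those nearest to Nv-zen had 0.07 to 0.43 after Toll pRNAi and -4.20 to -1.45 after BMP pRNAi, and those nearest to Nv-tailup 0.03 to 0.32 and -2.92 to -1.56. These ranges describe loci picked for their likeness over the same libraries, and no test was made of them.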

How the data were processed

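The authors aligned the reads of the 6 libraries with TopHat2 2.0.3 to assembly 1.0 and ran Cufflinks and Cuffdiff 2.0.2 with annotation 2.0. The table the authors deposited holds expected counts, in which a fragment that maps to several places is divided, and FPKM scaled between libraries. The table numbers replicates, and these were matched to libraries by the order in the authors' Cuffdiff command, on which the names of the dpp and gbb libraries rest. Supplementary lists pair 1799 loci with 2019 gene identifiers. That list was held in part and gives significant loci first, so unpaired loci are named as such.

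For the tests, expected counts were rounded and entered into edgeR 4.0.16 (R 4.3.3, quasi-likelihood), using TMM scaling and its default filter (10241 loci kept). The model held 1 mean per group over the 6 libraries and gave a biological coefficient of variation of 0.0953. P-values were adjusted by Benjamini-Hochberg over all tested loci within a comparison, with a threshold of 0.05. The script was tested on simulated data. FPKM is given per library and as mean ± SD. Alternatives used DESeq2 1.42.0, limma 3.58.1 on log2(FPKM + 1) and log2(FPKM + 0.1), other filters and scaling, fewer libraries and a replicate block. The named genes are the 3 members, those members of the lists that illustrate a count, and the 5 loci per gene of most similar profile. The 3 genes, the lists and the tests were chosen or compiled from the study's lists with earlier results of these data known.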

Additional observations from a re-analysis of the deposited data

How the results depend on the processing

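The lower levels of Nv-zen and Nv-tailup after BMP pRNAi kept their direction and passed the test under all 12 alternatives against water and all 13 against Toll pRNAi, and so did Nv-dorsocross against Toll pRNAi. Nv-dorsocross against water after BMP pRNAi passed under 11 of 12, with -1.07 (adjusted p = 0.052) by limma on log2(FPKM + 1) with no filter. After Toll pRNAi, Nv-dorsocross no longer passed by limma on log2(FPKM + 1) (0.48, adjusted p = 0.088), on log2(FPKM + 0.1) (0.49, adjusted p = 0.16) or with no filter (0.48, adjusted p = 0.13), nor with 1 library left out (0.45 to 0.59), and passed under the other 5, with DESeq2 among them (0.50, adjusted p = 0.0021). Nv-tailup after Toll pRNAi turned below 0 with no filter on low counts (-0.0068), by limma on log2(FPKM + 1) (-0.093), on log2(FPKM + 0.1) (-0.12) and with no filter (-0.093), and ranged over -0.078 to 0.12 with 1 library left out. Its level after Toll pRNAi was 92.1% of water by FPKM and 101.6% by CPM. The cause of these differences was not tested, apart from fewer libraries where 1 was left out.

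The number of loci called moved more. For BMP pRNAi against water it was 568, with 1328 by DESeq2, 2053 with no filter, 162 with only the 2 groups, 281, 113 and 73 by limma on log2(FPKM + 1), on log2(FPKM + 0.1) and with no filter, and 90 to 2628 with 1 library left out. For Toll pRNAi against water it was 371, with 779, 1238, 1343, 27, 22 and 78 under the same settings and 22 to 50 with 1 library left out. For BMP pRNAi against Toll pRNAi it was 706, with 1641 with no filter, 361, 267 and 241 by the limma fits and 217 to 2045 with 1 library left out. A lone library in a group was assumed to vary like the others.

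BMP and Toll libraries share title numbers. The deviations of same-numbered libraries correlated at 0.139 over 6153 loci, with 2 pairs only, which does not show that the numbers pair the samples. With the replicate block 1369 loci were called between BMP and Toll pRNAi, and the fold changes were -2.88 for Nv-zen, -1.68 for Nv-dorsocross and -1.76 for Nv-tailup, all 3 past the threshold.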
